A study of Mus musculus with 6 samples.

Results

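Cytosolic ribosomal proteins are the protein components of the ribosome of the cytoplasm, and their genes were followed in hematopoietic stem cells (HSCs) of wild-type (WT) and *Irf1-/-* mice. Genes were taken by symbol, as Rpl, Rps or Rplp followed by a number and at most 1 lower-case letter, together with *Rpsa*, and symbols of pseudogenes ending in -ps were left out. Of the 26264 genes in the deposited table, 82 had such a symbol, and 80 of these averaged at least 10 normalized counts over the 6 libraries. The 80 members comprised 48 genes of the large subunit and 32 of the small subunit. Just inside this minimum were *Rpl32l* and *Rpl3l*, with means of 12.3 and 13.3, and just outside it were *Rpl39l* (7.20) and *Rpl10l* (1.61). All 80 members also entered the test between genotypes, which used the same minimum.

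A ribosome consists of a small subunit, which decodes the mRNA, and a large subunit, which forms the peptide bond, and each ribosomal protein is normally present in a single copy per subunit, apart from the stalk proteins. The mRNAs of most of these proteins begin with a cytosine followed by a run of pyrimidines, the 5′ terminal oligopyrimidine motif, through which mTOR signaling controls their translation. HSCs are known for a low rate of protein synthesis compared with their progeny, and loss of 1 copy of some ribosomal protein genes causes Diamond-Blackfan anemia in humans.

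RNA was sequenced from untreated bone marrow HSCs, sorted as Lineage- Sca1+ cKit+ CD150+ CD48- cells, of 3 *Irf1-/-* and 3 WT female mice at 8 weeks of age. Each mouse gave 1 library. Mice labelled *Irf1-/-* carried a whole-body knockout of *Irf1*, the gene of an interferon-induced transcription factor, so that their HSCs also came from a knockout environment. WT mice were C57Bl/6. Reads on genes amounted to 43138521, 57281017 and 45129929 in *Irf1-/-* libraries (replicates 2, 3 and 4) and to 59658080, 45332573 and 43267486 in WT libraries (replicates 2, 3 and 4). All values follow this order of replicates. The numbers name the mice and were not taken to pair them. Values are normalized counts, in which the reads of a gene were scaled by a size factor of the library. Fold changes are *Irf1-/-* over WT on the scale of log2(normalized count + 1), from limma. The fit covered the 17404 genes whose normalized counts averaged 10 or more. Adjustment of *P* (Benjamini-Hochberg) was over all of these genes. Called genes had an adjusted *P* under 0.05 together with a log2 fold change beyond 0.58 in either direction.

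*Irf1* itself had normalized counts of 9267, 9524 and 9287 in *Irf1-/-* HSCs and 10122, 11119.6 and 12058 in WT HSCs, with a log2 fold change of −0.24 (SE 0.09, limma adjusted *P* = 0.170). All 3 *Irf1-/-* libraries lay below all 3 WT libraries, but reads were still counted on the gene in *Irf1-/-* HSCs. Which part of the gene was deleted is not given in the sources used here, and counts over the whole gene do not show the knockout. Of 9 genes used as HSC markers, all were detected in every library, including *Kit* with 77902, 88715 and 79909 in *Irf1-/-* HSCs and 83185, 84044 and 80517 in WT HSCs. *Slamf1*, which encodes CD150, had 3823, 3412 and 3481 in *Irf1-/-* HSCs and 3198, 3052 and 2848 in WT HSCs. *Cd48*, whose protein was absent from the sorted cells by gate, had fewer, with 431, 279 and 314 in *Irf1-/-* HSCs and 257, 326 and 359 in WT HSCs. *Fgd5* was called higher in *Irf1-/-* HSCs (log2 fold change 0.83, SE 0.09, limma adjusted *P* = 9.13e-05) and also with any 1 library left out. The other 8 genes were not called, although 3 of the 9 had an adjusted *P* under 0.05 with any fold change. *Ly6a*, which encodes Sca1, had the lowest log2 fold change of the 9, with 4974, 6047 and 5376 in *Irf1-/-* HSCs and 6908, 7439 and 7692 in WT HSCs (log2 fold change −0.43, SE 0.09, limma adjusted *P* = 0.0245), and *Procr* was higher (log2 fold change 0.52, SE 0.10, limma adjusted *P* = 0.0112).

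Markers of other blood cells were summed in each library. The 8 erythroid genes, with *Epor* the most abundant, summed to 3759.9, 2257 and 2821 in *Irf1-/-* and 5370.3, 4889.8 and 5633 in WT libraries. The 4 globin genes *Hba-a1*, *Hba-a2*, *Hbb-bs* and *Hbb-bt* were listed at 0 in all 6 libraries. The treatment of reads that align to several gene copies is not given, so these values do not show that globin RNA was absent. The 5 megakaryocyte genes, led by *Itga2b*, summed to 40098, 24837 and 35732 in *Irf1-/-* and 46828, 60084 and 44769 in WT libraries, highest in WT replicate 3. From these lists *Klf1*, *Car1*, *Pf4* and *Gp1ba* were called lower in *Irf1-/-* HSCs (log2 fold changes of −0.72, −3.51, −1.11 and −0.69), of which *Pf4* alone was called with any 1 library left out. Without *Irf1-/-* replicate 3 the other 3 were not called, at −0.50, −2.60 and −0.64; *Klf1* and *Gp1ba* also lost the call without *Irf1-/-* replicate 2 or WT replicate 3, *Klf1* without WT replicate 2 and *Car1* without *Irf1-/-* replicate 4. By edgeR and DESeq2 *Car1* was not called, and the other 3 were called lower. For 10 myeloid genes, with *Lyz2* the most abundant, the sums were 34009, 40027 and 37476 in *Irf1-/-* and 30055, 34715 and 39876 in WT libraries. The neutrophil granule gene *Ltf* had 64.0, 57.9 and 44.6 in *Irf1-/-* HSCs and 45.3, 28.2 and 2032 in WT HSCs, highest in WT replicate 4. Sums of 7 B cell genes, led by *Cd79b*, were 3170.4, 2939 and 3115 in *Irf1-/-* and 2855, 3195 and 2751 in WT libraries. Those of 7 T and NK cell genes, led by *Nkg7*, were 3119, 2898 and 3829.6 in *Irf1-/-* and 3843, 3579 and 3761 in WT libraries. None of these genes was listed at 0 in all libraries, and *Cd3e*, *Cd3g* and *Cd8a* had at most 12.4 normalized counts in each. The 3 genes of multipotent progenitors, led by *Cd34*, summed to 20379, 26211 and 21245 in *Irf1-/-* and 19641, 17853 and 20003 in WT libraries. In this list *Flt3* was called higher in *Irf1-/-* HSCs (log2 fold change 0.67, SE 0.16, limma adjusted *P* = 0.0407). It was not called without WT replicate 3 (log2 fold change 0.45) or without any 1 of the *Irf1-/-* libraries (0.74, 0.55 and 0.73). The part of other cells in the ribosomal protein values was not tested.

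WT replicate 3 stood apart from the other 5 libraries in these genes. It held the lowest count of all 6 libraries for 48 of the 80 members, followed by *Irf1-/-* replicate 2 with 29. Of all 17404 tested genes, 3209 and 3115 were lowest in these 2 libraries. The highest count was in WT replicate 4 for 43 members and in *Irf1-/-* replicate 4 for 27 (2993 and 2696 of all tested genes). The deficit in WT replicate 3 followed the length of the coding sequence, which was known for 78 members (97.5%). For the 9 members with a coding length under 300 nt, the count in WT replicate 3 was 47.6% of the mean of the other 5 libraries (median over genes). The corresponding medians were 70.0% for the 27 members of 300 to under 450 nt, 85.0% for the 19 members of 450 to under 600 nt and 104% for the 23 members of 600 nt or more. No other library had a median below 86.0% or above 131% in any of these 4 classes. Across the 78 members, the log2 deviation of a library from the gene's mean was related to log2 coding length with Pearson's *r* = 0.84 in WT replicate 3, against −0.29, −0.17 and −0.69 in *Irf1-/-* libraries and −0.55 and −0.11 in WT replicates 2 and 4. Spearman's rho was 0.87 in WT replicate 3, −0.48, −0.69 and −0.79 in *Irf1-/-* libraries and −0.83 and −0.21 in WT replicates 2 and 4. A gene's mean includes WT replicate 3, so that a low count there raises the deviations of the other libraries. These are descriptions across genes, which share libraries and size factors and are not replicates.

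**Figure D1:**
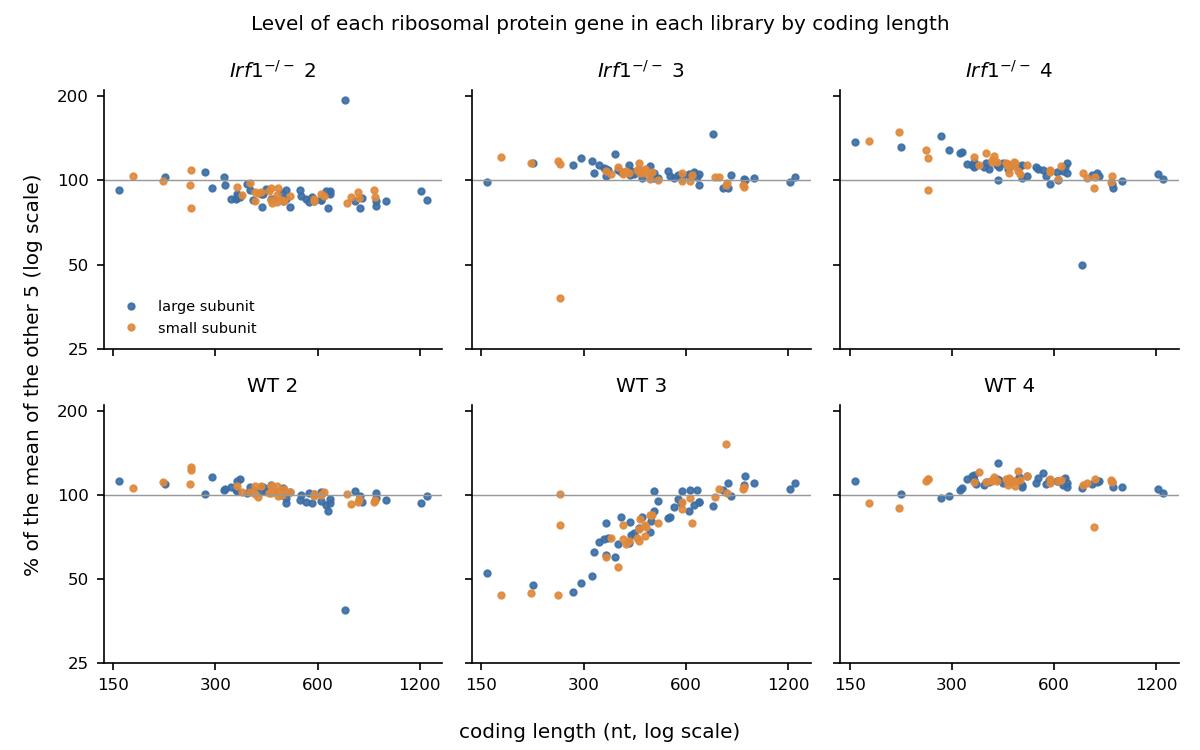
Each point is 1 ribosomal protein gene (78 with a known coding length), placed by coding length in nt on a log axis and by its normalized count in 1 library as a percentage of the mean of the other 5 libraries, also on a log axis, with 1 panel per mouse and colors for the subunits. In WT replicate 3 the genes under 300 nt have a median of 47.6% and those of 600 nt or more a median of 104%. Points far from the rest in the other panels include the low-count genes *Rpl3l* and *Rps27*. The gene *Rps4l* lies high in WT replicate 3 and low in WT replicate 4.

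Genes outside the ribosome with short transcripts were also low in WT replicate 3. Grouped by their longest annotated protein-coding transcript, the 97 other tested genes under 500 nt had a median of 69.9% of the mean of the other 5 libraries, beside 55.8% for the 10 members of that length. Between 500 and under 600 nt the medians were 79.3% for 74 other genes and 69.1% for 8 members. Between 600 and under 800 nt they were 91.8% (296 genes) and 79.9% (17 members). The 12857 other genes of 1500 nt or more had a median of 101%, and the 10 members in that class had 92.1%. Some of these members also have a much shorter coding transcript, such as *Rps15a* (640 beside 5130 nt) and *Rpl24* (677 beside 4999 nt). Members and other genes of a class are therefore not matched for the length of the transcript in use. Whether the library or the mouse differed cannot be told apart with 1 library per mouse. Most log2 fold changes of members are given with and without WT replicate 3.

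Ribosomal protein genes took 1.74%, 1.86% and 2.02% of all normalized counts in *Irf1-/-* HSCs and 1.80%, 1.57% and 2.06% in WT HSCs. The means were 1.87% ± 0.143 in *Irf1-/-* and 1.81% ± 0.247 in WT HSCs (SD, n = 3 mice), and the groups overlapped. The difference between the means, a ratio of 1.04, was smaller than the spread between mice. Leaving out WT replicate 3, the lowest library, turned the ratio to 0.971. Large subunit genes took 1.05%, 1.13% and 1.22% in *Irf1-/-* HSCs and 1.08%, 0.973% and 1.24% in WT HSCs. Small subunit genes took 0.684%, 0.732% and 0.803% in *Irf1-/-* HSCs and 0.715%, 0.595% and 0.819% in WT HSCs. Summed counts of the large subunit were 1.54, 1.54 and 1.52 times those of the small subunit in *Irf1-/-* libraries and 1.51, 1.64 and 1.52 times in WT libraries. The ratio was highest in WT replicate 3. In bulk libraries, fewer cells of a type and less RNA per cell cannot be told apart. The 10 pseudogenes with -ps symbols added between 0.0107% and 0.0133% per library.

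**Figure D2:**
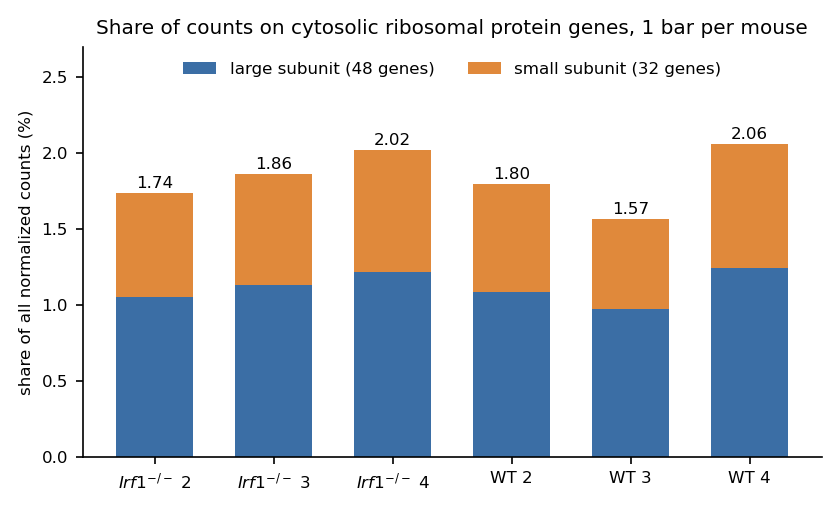
Bars give the percentage of all normalized counts on the 80 cytosolic ribosomal protein genes in each of the 6 mice, stacked by large (48 genes) and small (32 genes) subunit, with the total above each bar. WT replicate 3 is the lowest at 1.57% and WT replicate 4 the highest at 2.06%, with the 3 *Irf1-/-* mice between them.

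Per kilobase of transcript, most members were among the abundant transcripts of these cells. Levels per kilobase were taken for 14733 tested genes, fewer than the 15432 with a known length. Their median level was 460.5 normalized counts per kilobase. The 77 members with such a level had a median of 10529 on the same scale, and 70 of them were in the highest 10% of all these genes. *Rps4l*, whose transcript has a known length but no CCDS tag, was not among the 77. Large subunit members had a median of 8666 (interquartile range 6211 to 17044, 46 genes). For small subunit members it was 14029 (8167 to 18095, 31 genes), so that these ranges overlapped. The highest level per kilobase was that of *Rpl13*, at 63399, followed by *Rps14* (37052), *Rps18* (37049), *Rps19* (36967), *Rplp0* (36574) and *Rpl32* (31444). At the lower end were *Rps27* and *Rpl3l*, at 101 and 12.8 per kilobase. Levels and ranks of genes with near-identical copies, *Rps27* among them, are uncertain, because the treatment of reads that align to several copies is not given. The level of *Rps20* (1356) is uncertain because its single annotated coding transcript is 3706 nt long for a coding length of 360 nt.

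None of the 80 members was called higher or lower in *Irf1-/-* HSCs by limma, where 0.960% of all tested genes were called higher and 0.954% lower. The lowest adjusted *P* among members was 0.170 (limma), and edgeR and DESeq2 on the recovered reads also called none. Without WT replicate 2 or 4 the lowest was 0.0595 or 0.0642. At an unadjusted *P* under 0.05 there were 6 members (5 with a higher mean in *Irf1-/-* HSCs and 1 with a lower one), that is 7.50% against 16.5% of all tested genes. Values of all 3 *Irf1-/-* libraries exceeded those of all 3 WT libraries for 1 member, *Rpl37a*, against 10.6% of all tested genes. They lay below all 3 for 1 member, *Rpl5*, against 9.27%. The 95% confidence interval of the log2 fold change lay within −0.58 and 0.58 for 65 of the 80 members and for 50.2% of all tested genes. Without WT replicate 3, again no member was called (0.582% of all tested genes were called higher and 0.599% lower). In that fit 2 members, *Rpl27* and *Rps27l*, had an unadjusted *P* under 0.05 against 12.0% of all tested genes. This count also moved with other libraries. It was 11 without WT replicate 2 (all tested genes 12.4%) and 14 without WT replicate 4 (21.5%). Leaving out *Irf1-/-* replicates 2, 3 and 4 gave 4, 4 and 1 members (all tested genes 13.1%, 17.6% and 11.3%). Set against WT replicates 2 and 4 alone, the 3 *Irf1-/-* libraries lay above both for 1 member, *Rpl37a* (all tested genes 14.7%), and below both for 3 members, *Rpl5*, *Rpl27* and *Rps16* (all tested genes 13.0%).

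The median log2 fold change was 0.03 over large subunit members and 0.03 over small subunit members, against 0.00 over all tested genes. Of the large subunit members, 29 had a positive and 19 a negative log2 fold change (all tested genes 8628 and 8776). Of the small subunit members, 18 had a positive and 14 a negative one. Without WT replicate 3 both medians were negative, at −0.07 and −0.08 (all tested genes −0.01). Negative values were then found in 37 of 48 large and 25 of 32 small subunit members (8918 of all 17404 tested genes). Both medians were also negative without *Irf1-/-* replicate 4, at −0.02 and −0.03. The direction of either subunit thus changed on leaving out either of these 2 mice, and the difference between the subunits was not tested. With each library centered on its median, the large subunit median was −0.01, against −0.03 over all tested genes.

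Fold changes were ordered by coding length in both subunits. Under 300 nt, the median was 0.42 in the large (4 genes) and 0.41 in the small subunit (5 genes). At 600 nt or more, the medians were −0.05 (15 genes) and −0.09 (8 genes). Leaving out WT replicate 3 brought the short class to 0.09 and 0.02, and the long class was at −0.06 and −0.09. Without *Irf1-/-* replicate 2 the long class was at 0.01 and −0.04, so that the sign in the large subunit changed with this library. Across the 78 members with a length, Pearson's *r* between log2 coding length and log2 fold change was −0.62 with all libraries and −0.12 without WT replicate 3 (Spearman's rho −0.69 and −0.25), which again describes genes of the same libraries. In each library, the summed counts of the 9 members under 300 nt were 7.88%, 7.86% and 8.66% of those of the 23 members of 600 nt or more in *Irf1-/-* HSCs and 7.82%, 3.75% and 6.61% in WT HSCs. All 3 *Irf1-/-* values were thus above those of WT, by little for WT replicate 2 and by the most for WT replicate 3.

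**Figure D3:**
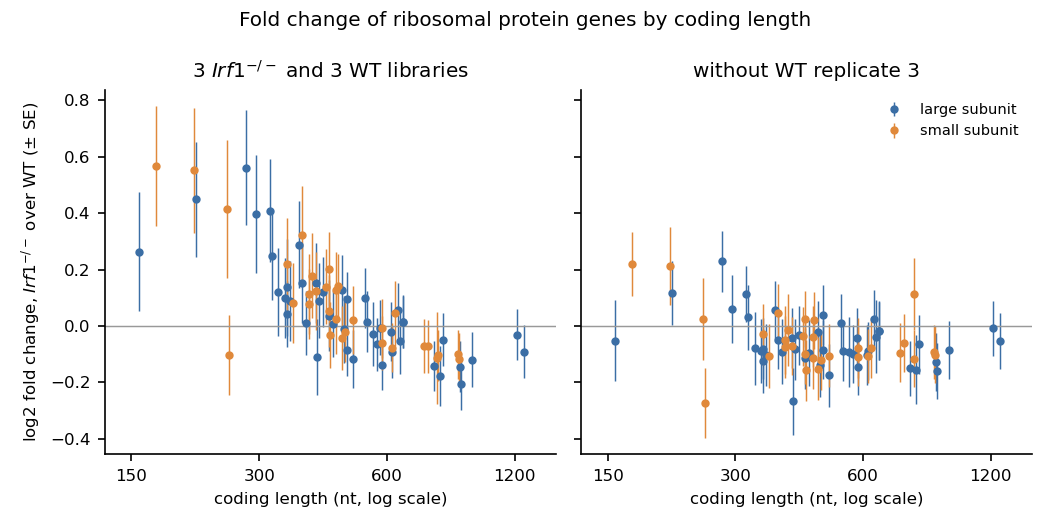
Points are log2 fold changes (*Irf1-/-* over WT) of 76 ribosomal protein genes with a known coding length and a mean normalized count of at least 50, with their standard errors from limma, against coding length in nt on a log axis and colored by subunit, with all 6 libraries on the left and without WT replicate 3 on the right. On the left, genes under 300 nt reach 0.57 (*Rps29*), and on the right the same gene is at 0.22.

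The members with the largest positive log2 fold changes among abundant genes encode small proteins of either subunit. *Rpl37a*, a large subunit gene, had normalized counts of 10611, 11120.5 and 13485 in *Irf1-/-* HSCs and 10091, 4987 and 9828 in WT HSCs, with a log2 fold change of 0.56 (SE 0.20, limma adjusted *P* = 0.170). Its WT counts were at 4987 in replicate 3 and within the range of 9828 to 10091 in the other 2 mice, just under the lowest *Irf1-/-* value. Without replicate 3 its log2 fold change was 0.23 (limma adjusted *P* = 0.428). *Rps29*, of the small subunit and mutated in some patients with Diamond-Blackfan anemia, had 4490.1, 5100.1 and 5659.7 in *Irf1-/-* HSCs and 4579, 2113 and 4121 in WT HSCs (log2 fold change 0.57, SE 0.21, limma adjusted *P* = 0.184). Here *Irf1-/-* replicate 2 lay below WT replicate 2, so that the groups overlapped, and the log2 fold change without WT replicate 3 was 0.22. *Rps28*, a small subunit gene also linked to Diamond-Blackfan anemia, had 2519, 2849 and 3479.7 in *Irf1-/-* HSCs and 2761, 1243 and 2306 in WT HSCs (log2 fold change 0.55, SE 0.22, limma adjusted *P* = 0.219), and 0.21 without WT replicate 3. In *Rps28* as well, *Irf1-/-* replicate 2 was below WT replicate 2.

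*Rpl38*, a large subunit gene known for a role in the translation of Hox mRNAs, had normalized counts of 2765, 3031 and 3369 in *Irf1-/-* HSCs and 2908, 1406 and 2714 in WT HSCs, and its log2 fold change of 0.45 (SE 0.21, limma adjusted *P* = 0.296) became 0.12 without WT replicate 3. For *Rpl36*, of the large subunit, the counts were 7615, 8481 and 8973 in *Irf1-/-* HSCs and 7734, 4159.6 and 7689 in WT HSCs (log2 fold change 0.41, SE 0.18, limma adjusted *P* = 0.279; 0.11 without WT replicate 3). *Rps21*, of the small subunit, had 981, 1153 and 1236 in *Irf1-/-* HSCs and 1088, 488 and 1110.2 in WT HSCs (log2 fold change 0.41, SE 0.25, limma adjusted *P* = 0.457; 0.02 without WT replicate 3). In all 3 genes WT replicate 3 was the lowest library and at least 1 other WT library lay within the range of *Irf1-/-* HSCs. Of the 9 members under 300 nt, WT replicate 3 was the lowest library in 8, the exception being *Rps27*.

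The smallest ribosomal RNA of the large subunit forms a particle with the proteins of *Rpl5* and *Rpl11*. This particle joins the large subunit during assembly and, when free, binds Mdm2 and thereby stabilizes p53. *Rpl5* had normalized counts of 11300.0, 13547 and 12799 in *Irf1-/-* HSCs and 13719.6, 15385 and 14259.6 in WT HSCs. No *Irf1-/-* library reached the WT range, although the highest *Irf1-/-* value came close to the lowest WT value. The log2 fold change of −0.21 (SE 0.09, limma adjusted *P* = 0.281) did not pass the threshold. *Rpl11* had 6235, 7165 and 7504 in *Irf1-/-* HSCs and 6973, 5963 and 7815 in WT HSCs, with overlapping groups and a log2 fold change of 0.02 (SE 0.11, limma adjusted *P* = 0.972). Without WT replicate 3 the log2 fold changes were −0.16 for *Rpl5* and −0.09 for *Rpl11*. Without *Irf1-/-* replicate 2 they were −0.13 and 0.09.

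The stalk of the large subunit, which recruits elongation factors, is built from the products of *Rplp0*, *Rplp1* and *Rplp2*. *Rplp0*, the base of the stalk and the longest of the 3 coding sequences (954 nt), had normalized counts of 43012, 50429 and 49464 in *Irf1-/-* HSCs and 48224, 54160.1 and 52713 in WT HSCs (log2 fold change −0.12, SE 0.10, limma adjusted *P* = 0.624). The counts of *Rplp1* were 7029, 8702 and 8893 in *Irf1-/-* HSCs and 8280.1, 5877 and 9101 in WT HSCs (log2 fold change 0.10, SE 0.14, limma adjusted *P* = 0.816). Those of *Rplp2* were 4115, 5007 and 5248 in *Irf1-/-* HSCs and 5091, 3017 and 5294 in WT HSCs (log2 fold change 0.14, SE 0.17, limma adjusted *P* = 0.781). WT replicate 3 was thus the highest library for *Rplp0* and the lowest for *Rplp1* (345 nt) and *Rplp2* (348 nt), and the groups overlapped in all 3. Leaving it out gave log2 fold changes of −0.09, −0.09 and −0.12. Without *Irf1-/-* replicate 2, *Rplp0* was at −0.05.

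Of the 19 large subunit genes with negative log2 fold changes, 11 were of 600 nt or more. *Rpl7a* had 2385, 2749.7 and 3049 in *Irf1-/-* HSCs and 2878, 3158 and 3177 in WT HSCs (log2 fold change −0.18, SE 0.11, limma adjusted *P* = 0.469; −0.16 without WT replicate 3). *Rpl6* had 9068, 10635 and 10215 in *Irf1-/-* HSCs and 10274, 11257 and 11509 in WT HSCs (log2 fold change −0.14, SE 0.09, limma adjusted *P* = 0.490; −0.13 without WT replicate 3). Both were lowest in *Irf1-/-* replicate 2, and their groups overlapped. Without that library the log2 fold changes were −0.08 and −0.08. *Rpl13a*, whose protein is known to leave the ribosome after interferon stimulation and to silence inflammatory mRNAs, had 6777, 8131 and 8188 in *Irf1-/-* HSCs and 7939, 6929.6 and 8543 in WT HSCs (log2 fold change −0.02, SE 0.10, limma adjusted *P* = 0.960; −0.10 without WT replicate 3). *Rpl22*, whose loss impairs T cell development, had 3211, 3915 and 3981 in *Irf1-/-* HSCs and 3831, 3172 and 4027 in WT HSCs (log2 fold change 0.01, SE 0.11, limma adjusted *P* = 0.981; −0.09 without WT replicate 3). In both genes the genotypes overlapped. *Rpl13*, the most abundant member per kilobase, had 45995, 52418 and 52758 in *Irf1-/-* HSCs and 46197, 46338 and 53000.0 in WT HSCs (log2 fold change 0.05, SE 0.10, limma adjusted *P* = 0.860; 0.02 without WT replicate 3). *Rpl32*, which is shorter, had 14796, 18114 and 18109 in *Irf1-/-* HSCs and 16761, 11614 and 18146 in WT HSCs (log2 fold change 0.15, SE 0.14, limma adjusted *P* = 0.680; −0.04 without WT replicate 3).

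In the small subunit, the protein of *Rps6* is the phosphorylated substrate of the ribosomal S6 kinases downstream of mTOR. *Rps6* had normalized counts of 20692, 23799 and 23605 in *Irf1-/-* HSCs and 21959, 24255 and 25391 in WT HSCs, with a log2 fold change of −0.07 (SE 0.09, limma adjusted *P* = 0.786), and −0.06 without WT replicate 3. *Rpsa*, whose product also serves as a laminin receptor, had 26949, 28996 and 31218 in *Irf1-/-* HSCs and 29225, 31994 and 33195 in WT HSCs (log2 fold change −0.12, SE 0.09, limma adjusted *P* = 0.616; −0.10 without WT replicate 3). Neither gene separated the genotypes, and WT replicate 3 was not low in either. Without *Irf1-/-* replicate 2 their log2 fold changes were −0.01 and −0.06. *Rps19*, the gene most often mutated in Diamond-Blackfan anemia, had 22244, 26269.6 and 26157 in *Irf1-/-* HSCs and 23759, 16924 and 25047 in WT HSCs (log2 fold change 0.20, SE 0.13, limma adjusted *P* = 0.514; 0.02 without WT replicate 3). *Rps14*, whose loss underlies the anemia of the human syndrome with a deletion on the long arm of a chromosome, had 20169, 24129 and 25319 in *Irf1-/-* HSCs and 22860.5, 16739.7 and 24614 in WT HSCs (log2 fold change 0.13, SE 0.13, limma adjusted *P* = 0.715; −0.04 without WT replicate 3). *Rps18* had 21069, 23715 and 25026 in *Irf1-/-* HSCs and 22157, 17743 and 23667 in WT HSCs (log2 fold change 0.14, SE 0.11, limma adjusted *P* = 0.609; 0.02 without WT replicate 3). In these last 3 genes WT replicate 3 was the lowest library and every other WT value fell within the range of *Irf1-/-* HSCs.

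Of 20 members in which mutations cause Diamond-Blackfan anemia, none was called in either direction by limma, edgeR or DESeq2, and 3 had an unadjusted *P* under 0.05 (all tested genes 16.5%). Their log2 fold changes ranged from −0.43 (*Rps27*, 0.02 without *Irf1-/-* replicate 3) to 0.57 (*Rps29*) with a median of 0.06, and the median was −0.08 without WT replicate 3. Their summed normalized counts were 137849, 162326 and 165200.0 in *Irf1-/-* and 154970.0, 128255 and 165820.0 in WT libraries.

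Some ribosomal proteins have a paralogue with restricted expression. *Rpl3l*, the copy of *Rpl3* in striated muscle, had 22.4, 18.1 and 7.27 in *Irf1-/-* HSCs and 5.76, 12.4 and 14.0 in WT HSCs, whereas *Rpl3* had 35788, 38045 and 40041 in *Irf1-/-* HSCs and 36389, 39917 and 39975 in WT HSCs. *Rpl10l*, the testis copy of *Rpl10*, had 0, 2.59 and 6.23 in *Irf1-/-* HSCs and 0.823, 0 and 0 in WT HSCs, against 6064, 7506 and 8056 in *Irf1-/-* HSCs and 6553, 7596 and 8234 in WT HSCs for *Rpl10*. *Rpl39l* had 4.26, 7.78 and 2.08 in *Irf1-/-* HSCs and 9.05, 14.7 and 5.38 in WT HSCs, against 1605, 1706 and 2227 in *Irf1-/-* HSCs and 1891, 984 and 1898 in WT HSCs for *Rpl39*. Thus in all 6 libraries the counts of these 3 copies were a small fraction of those of the main gene. *Rps27l*, which encodes a close relative of the *Rps27* protein, showed the opposite, with 3040.3, 4104 and 3449.6 in *Irf1-/-* HSCs and 4362, 2985 and 4103 in WT HSCs against 37.3, 14.7 and 40.5 in *Irf1-/-* HSCs and 42.0, 34.9 and 38.7 in WT HSCs for *Rps27*. *Rps4l*, a transcribed pseudogene in the RefSeq annotation of GRCm38.p6, had 1492, 1563 and 1538 in *Irf1-/-* HSCs and 1545, 2264 and 1296 in WT HSCs, against 12671, 14081 and 14664 in *Irf1-/-* HSCs and 13958, 14577 and 15982 in WT HSCs for *Rps4x*, the X-linked gene. *Rps4l* was highest in WT replicate 3, at 152% of the mean of the other libraries. None of the 7 tested genes of a list of 9 paralogues was called, with log2 fold changes from −0.15 (*Rpl36al*) to 0.48 (*Rpl3l*). With each library left out in turn, *Rpl36al* lay between −0.24 (without WT replicate 3) and −0.03 (without *Irf1-/-* replicate 2), and *Rpl3l* between 0.13 (without WT replicate 2) and 0.93 (without *Irf1-/-* replicate 4). Among them, *Rpl36a* had a log2 fold change of 0.25 (SE 0.15, limma adjusted *P* = 0.489), which fell to 0.03 without WT replicate 3. *Rps27l* moved from −0.10 to −0.27 and *Rps4l* from −0.11 to 0.11 on leaving it out. *Rps27l* was at −0.002 without *Irf1-/-* replicate 2 and at 0.002 without WT replicate 2, and *Rps4l* at −0.29 without WT replicate 4. The main copies *Rpl3*, *Rpl10*, *Rpl39*, *Rps27* and *Rps4x* had log2 fold changes of −0.03, −0.05, 0.26, −0.43 and −0.10, and of −0.01, −0.04, −0.05, −0.50 and −0.12 without WT replicate 3. Without *Irf1-/-* replicate 2, *Rpl3*, *Rpl10* and *Rps4x* were at 0.01, 0.07 and −0.04. *Rpl10* was at −0.14 without WT replicate 2. The value of *Rps27* rested on *Irf1-/-* replicate 3 and was 0.02 without it. Because the treatment of reads that align to several copies is not given in the sources used here, counts of genes with near-identical copies, *Rps27* and *Rps27l* included, are uncertain.

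Several ribosomal proteins have symbols outside the pattern used here. *Fau*, which encodes a ubiquitin-like protein fused to a small subunit protein, had 4269, 4700.0 and 4939 in *Irf1-/-* HSCs and 4606, 3286 and 4976 in WT HSCs (log2 fold change 0.13, SE 0.13, limma adjusted *P* = 0.708; −0.05 without WT replicate 3). *Rack1*, the scaffold protein on the head of the small subunit, had 17819.8, 20679 and 19474 in *Irf1-/-* HSCs and 21909, 23468 and 22552 in WT HSCs (log2 fold change −0.23, SE 0.09, limma adjusted *P* = 0.189; −0.20 without WT replicate 3). WT replicate 3 was the lowest library for the short gene *Fau* (402 nt) and the highest for *Rack1* (954 nt). In *Rack1* the 3 *Irf1-/-* libraries lay below the 3 WT libraries. *Rps3a1*, a small subunit gene singled out after its values were seen because its symbol ends in a digit, had 20736, 23753 and 24682 in *Irf1-/-* HSCs and 22349, 23108 and 25093 in WT HSCs (log2 fold change −0.03, SE 0.09, limma adjusted *P* = 0.927; −0.04 without WT replicate 3). *Rps27rt* was listed at 0 in all libraries.

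Genes that build and regulate ribosomes were compared in the same way. Over all tested genes, 50.4% had a negative log2 fold change (median 0.00; −0.01 without WT replicate 3) and 16.5% an unadjusted *P* under 0.05. In none of these lists did limma, edgeR or DESeq2 call a gene. For ribosome assembly and translation initiation factors, *Irf1-/-* replicate 2 had medians of 83.5% and 85.8% of the mean of the other 5 libraries. Those of WT replicate 3 were 117% and 116%. For 50 ribosome assembly factors, 46 of 50 genes had a negative log2 fold change (median −0.16; −0.11 without WT replicate 3), 15 had an unadjusted *P* under 0.05, and none was called. *Nhp2*, a protein of the small nucleolar particles that guide pseudouridylation, had 3664, 5059 and 4451 in *Irf1-/-* HSCs and 5662, 6436 and 5633 in WT HSCs (log2 fold change −0.44, SE 0.11, limma adjusted *P* = 0.0543; −0.38 without WT replicate 3). *Ddx21*, a nucleolar helicase, had 3289, 3903 and 4132 in *Irf1-/-* HSCs and 4773, 5442 and 4168 in WT HSCs (log2 fold change −0.34, SE 0.12, limma adjusted *P* = 0.137; −0.25 without WT replicate 3). Among RNA polymerase I subunits and factors, which transcribe the ribosomal RNA, 10 of 14 genes had a negative log2 fold change (median −0.10; −0.04 without WT replicate 3), 1 had an unadjusted *P* under 0.05, and none was called. *Polr1c* had a log2 fold change of −0.25 (SE 0.10, limma adjusted *P* = 0.194) and *Ubtf* one of −0.17 (limma adjusted *P* = 0.508). With each library left out in turn, *Ubtf* lay between −0.27 (without WT replicate 4) and −0.09 (without *Irf1-/-* replicate 2). Over translation initiation factors, 24 of 28 genes had a negative log2 fold change (median −0.15; −0.10 without WT replicate 3), 8 had an unadjusted *P* under 0.05, and none was called. *Eif2s1* and *Eif3g* had a log2 fold change of −0.38 (SE 0.10, limma adjusted *P* = 0.0653) and a log2 fold change of −0.32 (SE 0.10, limma adjusted *P* = 0.0936). Over elongation factors, 5 of 8 genes had a negative log2 fold change (median −0.10; −0.09 without WT replicate 3), 3 had an unadjusted *P* under 0.05, and none was called. *Eif5a* had 59389.9, 69633 and 65763 in *Irf1-/-* HSCs and 75542, 85697 and 76049 in WT HSCs (log2 fold change −0.29, SE 0.10, limma adjusted *P* = 0.158; −0.23 without WT replicate 3). *Eef1e1* had a log2 fold change of −0.28 (SE 0.12, limma adjusted *P* = 0.255). Among regulators of oligopyrimidine mRNAs, such as the *Larp* genes and the mTOR complex, 14 of 16 genes had a negative log2 fold change (median −0.14; −0.12 without WT replicate 3), 2 had an unadjusted *P* under 0.05, and none was called. *Larp4* and *Larp1b* were at −0.27 and −0.23 (limma adjusted *P* = 0.174 and 0.443). Among noncoding host genes of small nucleolar RNAs, 5 of 11 genes had a negative log2 fold change (median 0.02; −0.21 without WT replicate 3), 2 had an unadjusted *P* under 0.05, and none was called. *Snhg8* had 249, 291 and 345 in *Irf1-/-* HSCs and 326, 110.4 and 293 in WT HSCs (log2 fold change 0.41), a direction that turned on WT replicate 3 (−0.08 without it). *Snhg4* had 488, 431 and 557 in *Irf1-/-* HSCs and 602, 730.3 and 676 in WT HSCs (−0.45, and −0.38 without WT replicate 3).

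Mitochondrial ribosomal proteins, which share the name but belong to the ribosome of mitochondria, served as a comparison. Of 78 genes, 72 had a negative log2 fold change (all tested genes 50.4%), with a median of −0.16 (−0.14 without WT replicate 3). Without *Irf1-/-* replicate 2 the median was −0.10, with 65 negative values. This library held the lowest count for 57 of the 78 genes (3115 of all 17404 tested genes). None was called by limma, edgeR or DESeq2, and 17 had an unadjusted *P* under 0.05 (all tested genes 16.5%). At an adjusted *P* under 0.05 with any fold change there was 1 gene, *Mrpl12*, singled out after its values were seen (log2 fold change −0.42, SE 0.10, limma adjusted *P* = 0.0375), and 561 of all 17404 tested genes. *Mrpl12* passed this limit with *Irf1-/-* replicate 3 or WT replicate 4 left out, but not with any other library left out or without the intensity trend. The count at an unadjusted *P* under 0.05 was 6, 7 and 22 without WT replicates 2, 3 and 4 (all tested genes 12.4%, 12.0% and 21.5%). It was 6, 31 and 8 without *Irf1-/-* replicates 2, 3 and 4 (13.1%, 17.6% and 11.3%). The 3 *Irf1-/-* libraries lay entirely below WT for 21 of them, against 9.27% of all tested genes. Summed counts were 0.384%, 0.424% and 0.405% of each library in *Irf1-/-* HSCs and 0.441%, 0.429% and 0.444% in WT HSCs, with no overlap of these shares between genotypes. The summed normalized counts themselves overlapped, with 176653, 210030 and 189961 in *Irf1-/-* and 216491, 219078 and 206447 in WT libraries. Whether cytosolic and mitochondrial members differ from each other was not tested.

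A list of 17 proliferation genes had negative log2 fold changes throughout, with a median of −0.50 (−0.37 without WT replicate 3), where 50.4% of all tested genes had negative values. As medians over the list, *Irf1-/-* libraries were at 85.9%, 91.1% and 56.6% of the mean of the other 5 libraries, lowest in replicate 4. WT libraries were at 125%, 141% and 96.0%. All 17 had an unadjusted *P* under 0.05 (all tested genes 16.5%), and 4 an adjusted *P* under 0.05 with any fold change (limma). *Top2a*, *Mki67* and *Aurkb*, 3 of the 17, were called lower (all tested genes 0.954%). *Top2a* had normalized counts of 7874, 8285 and 5166 in *Irf1-/-* HSCs and 13177, 12858 and 9810.1 in WT HSCs (log2 fold change −0.77, SE 0.16, limma adjusted *P* = 0.0177). *Mki67* had 3090.4, 3863 and 2278 in *Irf1-/-* HSCs and 5599, 4959.7 and 3949 in WT HSCs (log2 fold change −0.67, SE 0.17, limma adjusted *P* = 0.0427). *Aurkb* had 4272, 3838 and 2683 in *Irf1-/-* HSCs and 5919, 6015 and 4624 in WT HSCs (log2 fold change −0.63, SE 0.15, limma adjusted *P* = 0.0368). None of the 3 was called without WT replicate 3 (log2 fold changes of −0.71, −0.64 and −0.57), without WT replicate 2 (−0.69, −0.56 and −0.58) or without *Irf1-/-* replicate 4 (−0.55, −0.47 and −0.44). *Mki67* also lost the call without *Irf1-/-* replicate 2 (−0.69) and *Aurkb* without *Irf1-/-* replicate 3 (−0.69). All 3 also lost it without the intensity trend in limma, with the same fold changes, and were called lower by edgeR and DESeq2. The summed counts of the list were 182570.0, 189122 and 154535 in *Irf1-/-* and 247450.0, 275281 and 198452 in WT libraries, so that WT replicate 3, the library with the lowest share of counts on ribosomal protein genes, had the most on proliferation genes. The part of proliferation in the ribosomal protein values was not tested.

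The pyrimidine run at the start of the mRNA was looked up in the RefSeq promoters of build GRCm38.p6, which span 250 bases before to 50 after each annotated start and held 59 of the 80 members by symbol. A cytosine at the first transcribed base followed by at least 4 pyrimidines was found in 14 of the 59 members (23.7%), that is, in 8 of 36 of the large and 6 of 23 of the small subunit. It was found in 813 of 27025 genes with a promoter (3.01%) and in 2.96% of tested genes with one. The run had to begin exactly at an annotated start, so that a start placed a few bases off would miss it. The 45 members without a match may therefore include genes whose mRNA carries the run. The 14 members with the run were at a median of 0.12 in log2 fold change, and the 45 without a match at 0.01. Without WT replicate 3 these medians were −0.07 and −0.09. Carriers of the run include the short gene *Rps27* (255 nt), which was not lowest in WT replicate 3, and the long gene *Rpl14* (654 nt). They also include 2 of the short members that were low in WT replicate 3, *Rps21* and *Rpl38*, and 2 long ones that were not, *Rpl15* and *Rps6*. The starts of these 4 genes are printed from 10 bases before to 20 bases into the transcript, 5′ to 3′ on the strand of the gene, with the run in capitals. They lie at chr2:180257369-180257398 (plus strand), chr11:114668570-114668599 (plus), chr14:18270967-18270996 (minus) and chr4:86857348-86857377 (minus).
*Rps21*: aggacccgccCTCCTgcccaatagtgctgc
*Rpl38*: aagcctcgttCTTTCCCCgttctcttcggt
*Rpl15*: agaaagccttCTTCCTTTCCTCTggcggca
*Rps6*: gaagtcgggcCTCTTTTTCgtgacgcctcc
In WT replicate 3 the counts of these genes were 43.8%, 47.6%, 104% and 105% of the mean of the other 5 libraries, in the same order, and their coding lengths were 252, 213, 615 and 750 nt. A run at an annotated start is a description of the sequence and says nothing about its use in these cells.

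Another 2 motifs were searched on both strands of the same windows. GAAANNGAAA, the core bound by interferon regulatory factors, was present in 7 of the 59 members (11.9%) and in 3.70% of tested genes with a promoter (3.99% of all genes with one). CCGGAAGT, the core bound by ETS factors, was present in 12 members (20.3%) and in 7.32% of tested genes with a promoter (4.31% of all genes with one). The members with GAAANNGAAA were *Rpl4*, *Rpl5*, *Rpl27a*, *Rpl38*, *Rps7*, *Rps19* and *Rps23*, and their log2 fold changes ranged from −0.21 (*Rpl5*) to 0.45 (*Rpl38*) with a median of 0.01, against 0.02 for the other 52 members. Without WT replicate 3 these medians were −0.05 and −0.08. The matches of the 2 genes at either end are shown in capitals within 30 bases on the strand of the gene, at chr5:107900390-107900419 (plus strand, with the motif on the opposite strand) and chr11:114668469-114668498 (plus strand, with the motif on the same strand).
*Rpl5*: aaagcctctaTTTCCCTTTCtcatcgccca
*Rpl38*: cagggctgctGAAATTGAAAtgatgaacgc
Such matches describe the sequence only, and binding of IRF1 to these promoters was not tested.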

How the data were processed

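HSCs of 3 WT and 3 *Irf1-/-* mice gave 1 library each, and genotype and replicate numbers were taken from the labels. The authors made cDNA and libraries with low-input kits that attach no molecular identifiers, trimmed the reads, aligned them with HISAT2 (build mm39 per the labels), and counted them with Htseq-count. The authors deposited a normalized signal, in which DESeq2 had scaled the counts of every library by a size factor. Program versions, annotation and strand setting are not given in the sources used here, so reads of overlapping genes could be assigned to either gene. All values (100%, tolerance 0.01 reads) could be turned back into whole reads, which gave the depth of each library. Libraries of 1 genotype differed by a chi-square per gene of 16.1 to 30.1, far above sampling noise. That they are separate mice rests on the labels.

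log2(normalized count + 1) was fitted with limma 3.58.1 in R 4.3.3 (intensity trend, Benjamini-Hochberg adjustment) over genes with a mean of at least 10. limma on the deposited scale took the place of DESeq2. edgeR 4.0.16 and DESeq2 1.42.0 were run on the recovered reads as alternatives, beside other pseudocounts, filters and normalizations, the replicate number as a block and each library left out. On simulated data (3 against 3 libraries, 17253 genes), limma, edgeR and DESeq2 called 96%, 96% and 96% of 100 genes changed 4-fold. They called 95%, 95% and 91% of 100 genes changed 3-fold, and 12, 12 and 6 unchanged genes. Recovery of changes smaller than 3-fold was not tested. Coding lengths came from GENCODE vM1 transcripts with a CCDS tag (any coding transcript where none had one), matched by symbol, and promoters from RefSeq. Figures were drawn with matplotlib 3.10.9.

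Named genes are called members; per subunit the 3 largest and 3 smallest log2 fold changes and the 3 highest levels per kilobase; stalk, *Rpl5* and *Rpl11*, *Rps6*, *Rps14*, *Rps19*, *Rpl13a*, *Rpl22*, and paralogues with their main copies; *Fau*, *Rack1* and *Irf1*; and, per pathway list, called genes or else the 2 largest absolute log2 fold changes. Marker genes, *Rpl36*, *Rps20*, *Rpl15* and *Rps3a1* were named after their values were seen. Of the genes in this rule, 1 is not reported here. Members and lists were chosen with earlier results of these data known.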

Additional observations from a re-analysis of the deposited data

How the results depend on the processing

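Under all 19 alternatives that refit the model, 0 of the 80 members were called higher and 0 lower, and the same held at an adjusted *P* under 0.05 with any fold change. Over all tested genes, 167 were called higher and 166 lower, against 7 and 33 without the intensity trend, 299 higher with DESeq2, and 301 and 260 without the threshold on the fold change. Leaving out 1 library gave between 83 (without *Irf1-/-* replicate 4) and 304 (without WT replicate 4) genes called higher and between 105 (without WT replicate 3) and 265 (without WT replicate 4) called lower. The median log2 fold change ranged from −0.07 (without WT replicate 3) to 0.11 over large subunit members and from −0.08 (without WT replicate 3) to 0.13 over small subunit members, moves smaller than the SD between mice of the mean deviation of a subunit. The ratio of the ribosomal protein share, *Irf1-/-* over WT, was between 0.971 and 1.11 when 1 library was left out, an alternative chosen after seeing the data. Among 948 values of 50 genes of the naming rule, 904 kept their direction and side of the threshold, 14 (*Top2a*, *Mki67* and *Aurkb*) lost their call without changing direction and 30 that were never called changed sign. Adding the pseudogenes or dropping the minimum of 10 moved the mean share of 1.84% by less than its SD over libraries. Deviations of same-numbered mice were correlated in 2 of 3 pairs (−0.09, 0.25 and 0.15 for numbers 2, 3 and 4) and the numbers were not taken as pairs. *Irf1-/-* replicate 2 correlated best with WT replicate 4 (0.25), and the replicate block called 219 genes higher and 196 lower, no member among them. With 3 mice per genotype, 15 members had a confidence interval reaching beyond the fold change threshold.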
